A study of Mus musculus with 12 samples.

Results

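Receptors that bronchodilator drugs, airway nerves, prostanoids and the incretin GLP-1 act on were followed in whole lung of Balb/c mice with house dust mite (HDM) allergy. The receptors were chosen by name: Glp1r (GLP-1 receptor), Adrb1 (beta-1 adrenoceptor), Chrm1, Chrm2 and Chrm3 (muscarinic acetylcholine receptors M1, M2 and M3), Vipr1 (receptor of vasoactive intestinal peptide), Ptger2 (EP2 receptor of prostaglandin E2) and Ptgir (IP receptor of prostacyclin). Of these 8 genes 7 had a probe set named for that gene alone, out of 19937 genes measured. Adrb1 was not analysed here. Glp1r was included because its level was low in the allergen groups, so its differences are given as a description without a test. The other 6 were tested with all 19937 genes.

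Each group held 3 mice with 1 array each, and the sources used here state neither age nor sex. Eosinophilic mice received 3 intraperitoneal injections of HDM extract on alum (days 0, 7 and 21) and were challenged through the nose on days 26 to 28, each time with 0.75 DU (development units) of each of the Der f and Der p allergens. Mixed mice received 0.75 DU of each allergen into the nose only, once a week and 4 times in all. Neutrophilic mice had the same 4 weekly intranasal applications with 7.5 DU of each allergen. Control mice received PBS intranasally and no allergen. The eosinophilic model thus differs from the others in route, adjuvant and schedule together, and these cannot be told apart.

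All these receptors are coupled to G proteins. Receptors for GLP-1, beta-agonists, vasoactive intestinal peptide, prostaglandin E2 at EP2 and prostacyclin at IP raise cyclic AMP through the stimulatory protein Gs, and cyclic AMP relaxes airway smooth muscle. M1 and M3 work through Gq and phospholipase C, and M3 drives airway contraction and mucus secretion, while M2 works through the inhibitory protein Gi and, on nerve endings, limits further release of acetylcholine. Muscarinic antagonists and beta-agonists are used as bronchodilators. The incretin receptor is best known from the pancreatic islet, and Glp1r is also expressed in mouse lung.

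Promoters are shown for Glp1r and Chrm2, the receptor genes with the largest differences from control. They are the 250 bases before each RefSeq gene start (GRCm38.p6, plus strand), with GC boxes (GGGCGG on either strand) in capitals.
Glp1r, chr17:30901617-30901866: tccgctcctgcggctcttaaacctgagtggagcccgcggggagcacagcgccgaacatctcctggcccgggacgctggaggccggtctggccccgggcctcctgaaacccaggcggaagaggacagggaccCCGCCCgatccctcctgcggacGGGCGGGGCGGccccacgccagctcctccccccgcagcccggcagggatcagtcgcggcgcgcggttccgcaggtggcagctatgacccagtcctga
Chrm2, chr6:36387834-36388083: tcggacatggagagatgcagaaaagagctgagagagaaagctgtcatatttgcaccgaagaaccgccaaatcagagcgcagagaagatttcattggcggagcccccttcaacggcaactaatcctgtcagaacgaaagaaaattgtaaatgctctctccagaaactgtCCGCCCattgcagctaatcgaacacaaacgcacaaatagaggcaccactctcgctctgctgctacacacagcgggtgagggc
The Glp1r window was 73.2% G or C and held 3 GC boxes, of which 2 overlap by a base. The Chrm2 window was 50% G or C and held 1. A GC box was found in 32.7% of all 32851 promoter windows of this length. Neither window held a cyclic AMP response element (TGACGTCA, in 1.55% of windows) or a TATA box (TATAAA, in 12.4%), searched on both strands, which says only that these letters were not there.

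Values are log2 intensities, which cannot be compared between probe sets as levels of RNA. The array of eosinophilic mouse 7 stood apart: its correlation with the median of the remaining 11 was 0.356, and its probe sets had an SD of 0.995 log2. The SDs of eosinophilic mouse 9 (1.52) and neutrophilic mouse 23 (1.51) were low too, against 1.77 to 2.04 on the other 9. As a check of the tissue, the mean of 8 genes of alveolar type 2 cells, which make surfactant, was 6.29, 11.2 and 10.7 log2 in eosinophilic mice 7, 8 and 9, 10.9 to 11.5 in mixed, 10.4 to 11.4 in neutrophilic and 11.4 to 11.5 in control mice, so mouse 7 lacked the lung signal of the others. The 1027 olfactory receptor genes, which lung is not known to need, had medians of 5.12, 3.57 and 4.30 in eosinophilic mice 7, 8 and 9, of 3.35 to 3.87 in mixed mice, of 4.34, 3.63 and 3.55 in neutrophilic mice 23, 24 and 25, and of 3.35 to 3.72 in control mice. The main differences are therefore given with all 12 arrays and with the 11 arrays without mouse 7. Of the 7 receptor genes 5 reached log2 5 on at least 3 arrays, and Chrm3 and Ptger2 did not. The mean of Chrm3 over 12 arrays (4.53) lay above 94.3% of the olfactory genes' means and that of Ptger2 (4.59) above 94.9%, so both signals were within the range of genes that lung is not known to need.

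**Figure D1:**
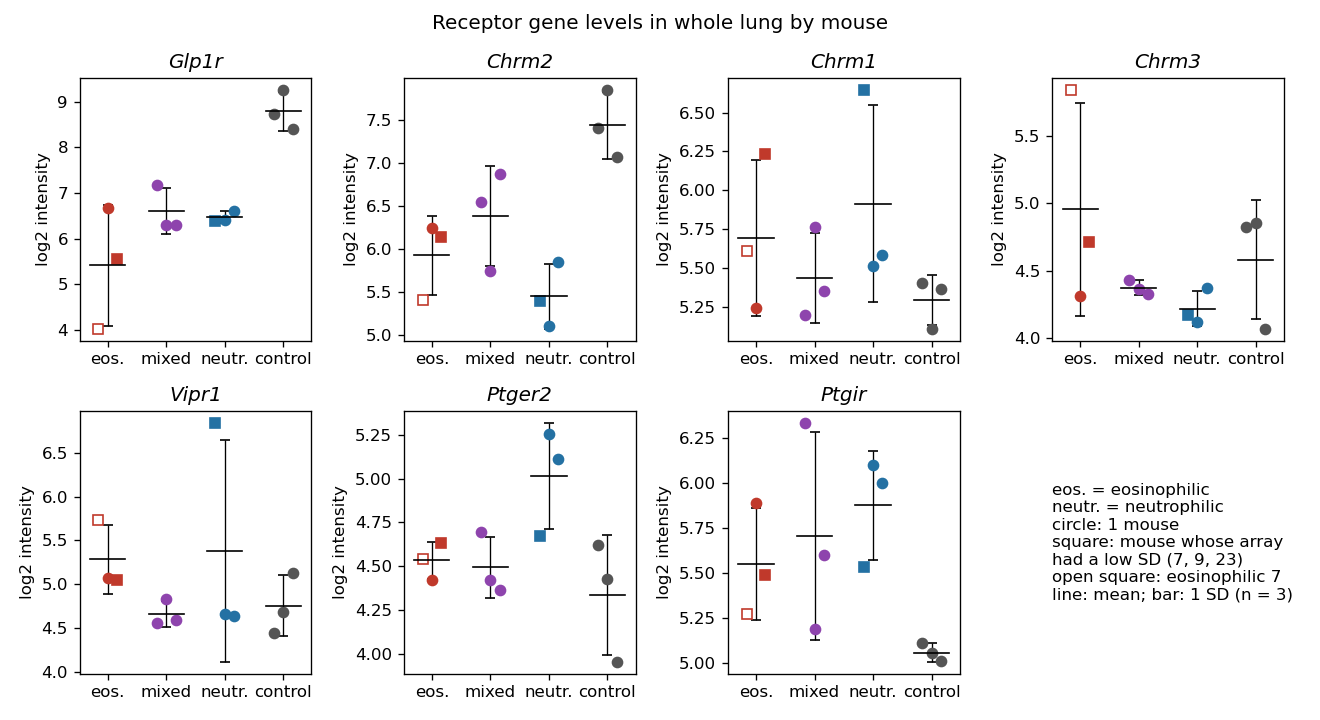
Log2 intensity of each receptor gene (vertical axis, scaled per gene) in eosinophilic, mixed, neutrophilic and control mice, 1 point per mouse, with the group mean and 1 SD. Glp1r and Chrm2 are highest in the 3 control mice, and the highest Vipr1 value (6.83) is that of neutrophilic mouse 23.

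Glp1r was the receptor with the largest difference, and it was lower in every allergen-exposed mouse than in every control mouse. Eosinophilic mice 7, 8 and 9 had 4.03, 6.67 and 5.56 log2. Mixed mice had 7.18, 6.31 and 6.31, and neutrophilic mice had 6.38, 6.42 and 6.62. Control mice had 8.72, 9.25 and 8.41. The lowest value was that of mouse 7, where Glp1r lay below the median of the olfactory genes on that array, and the neutrophilic mice were the tightest group (SD 0.13, n = 3).

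Group means of Glp1r were 5.42 ± 1.33 in eosinophilic, 6.60 ± 0.50 in mixed, 6.47 ± 0.13 in neutrophilic and 8.79 ± 0.43 in control mice (log2, SD, n = 3 each). The eosinophilic difference from control was -3.37 (SE 0.53, 10.4-fold lower) with 12 arrays and -2.68 (SE 0.38, 6.40-fold lower) without mouse 7. That of mixed mice was -2.19 (4.58-fold lower) and that of neutrophilic mice -2.32 (5.01-fold lower), with an SE of 0.53 with 12 arrays and 0.34 with 11. Among the allergen groups, neutrophilic minus mixed, the step in intranasal dose, was -0.13. Mixed minus eosinophilic was 1.18 with 12 arrays and 0.48 without mouse 7, and neutrophilic minus eosinophilic was 1.05 and 0.35. The order of the group means was control, mixed, neutrophilic and eosinophilic, and the mice of every pair of allergen groups overlapped. In whole lung, fewer cells of a type and less RNA per cell cannot be told apart.

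The genes most like Glp1r over all 12 arrays, among those with a mean of at least 5 log2, were Adamts10 (Pearson r 0.976), Lama3 (0.976), Cyb561a3 (0.974), Eogt (0.973) and Pnpla6 (0.972). Lama3 encodes a laminin chain of the epithelial basement membrane, and Adamts10 a secreted metalloprotease. Over the 11 arrays without mouse 7 they were Ppp1r9a (0.969), Tspan18 (0.968), Adamts10 (0.965), Tmtc2 (0.965) and Dixdc1 (0.965). Adamts10 was on both lists. Such r values describe likeness only, since all genes share the arrays, their signal range and the split between allergen and control mice.

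Genes around the GLP-1 system gave the following values. Dpp4, the membrane peptidase that inactivates GLP-1, had 6.52, 7.79 and 6.74 log2 in eosinophilic mice, 7.85, 7.53 and 7.89 in mixed mice and 6.53, 6.82 and 6.67 in neutrophilic mice, against 9.10, 8.97 and 8.42 in control mice. Like Glp1r, it was lower in all 9 allergen-exposed mice than in any control mouse. Dpp4 fell in eosinophilic mice (log2 -1.81, SE 0.34, adjusted p = 0.0462, and -1.56, adjusted p = 0.037 without mouse 7) and in neutrophilic mice (-2.15, SE 0.34, adjusted p = 0.011, and 0.000932 without mouse 7). In mixed mice it measured -1.07 (adjusted p = 0.27, and 0.0757 without mouse 7). Gcg, the precursor gene of GLP-1, is named after its values were seen. It had 4.64, 3.75 and 4.36 log2 in eosinophilic mice, 3.69, 3.94 and 4.0 in mixed mice and 5.03, 4.36 and 3.97 in neutrophilic mice, against 3.70, 3.75 and 4.06 in control mice, and it passed in no comparison.

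Markers of lung cell types were measured beside these genes. The mean of 9 alveolar type 1 genes, of the thin cells of gas exchange, ranged from 6.17 to 9.82 in eosinophilic, 9.41 to 9.81 in mixed and 9.02 to 9.39 in neutrophilic mice, against 10.2 to 10.6 in control mice. Of those 9 genes 1 was lower in eosinophilic, 0 in mixed and 2 in neutrophilic mice with 12 arrays, and 2, 3 and 6 without mouse 7. Among all genes 0.421%, 0.145% and 1.45% were lower in these groups with 12 arrays, and 0.883%, 1.57% and 7.23% with 11. The mean of 14 blood endothelial genes ranged from 6.17 to 9.40 in eosinophilic, 8.99 to 9.71 in mixed and 8.74 to 9.26 in neutrophilic mice, against 9.99 to 10.2 in control mice. Of these 1, 0 and 0 were lower with 12 arrays, and 2, 3 and 5 with 11, to be read against the same shares of all genes. Their part in the lower Glp1r level was not tested.

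Among the 6 tested receptors, 1 passed the threshold (adjusted p under 0.05) with all 12 arrays, Chrm2 in neutrophilic against control mice, where 2.11% of all genes passed. The other comparisons with all 12 arrays gave 0. Chrm2 had 5.41, 6.25 and 6.14 log2 in eosinophilic mice 7, 8 and 9, 6.55, 5.75 and 6.87 in mixed mice and 5.39, 5.11 and 5.85 in neutrophilic mice. Control mice had 7.41, 7.85 and 7.07. Every allergen-exposed mouse lay below every control mouse, and neutrophilic mouse 24 was the lowest of the 12. In eosinophilic mouse 7 and neutrophilic mouse 23 Chrm2 lay below the 95th percentile of the olfactory genes on the same array (6.42 and 5.48). Chrm2 fell in neutrophilic mice (log2 -1.99, SE 0.37, 95% interval -2.79 to -1.19, 3.97-fold lower, adjusted p = 0.0187 by limma), and the adjusted p was 0.00223 without eosinophilic mouse 7.

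The Chrm2 call in neutrophilic mice depended on single arrays. The adjusted p was 0.1 without control mouse 1, 0.12 without control mouse 2, 0.0972 without neutrophilic mouse 24 and 0.0576 without neutrophilic mouse 25, and the log2 difference stayed between -2.19 and -1.70 over 15 alternative settings, of which 10 kept it past the threshold. In eosinophilic mice Chrm2 measured -1.51 (SE 0.37, adjusted p = 0.0736), and -1.25 (adjusted p = 0.113) without mouse 7. In mixed mice it measured -1.05 (SE 0.37, adjusted p = 0.354, and 0.113 without mouse 7). The difference between neutrophilic and mixed mice was -0.94 (95% interval -1.74 to -0.13, adjusted p = 1), and the groups overlapped through mixed mouse 16. Mixed minus eosinophilic was 0.46 (-0.35 to 1.26, adjusted p = 0.441), and neutrophilic minus eosinophilic -0.48 (-1.28 to 0.32, adjusted p = 0.587). The group means ran in the order control, mixed, eosinophilic and neutrophilic, with no difference between the allergen groups past the threshold.

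M2 receptors are abundant in heart muscle, in smooth muscle and on airway nerves, so markers of those cells were set beside Chrm2. None of 11 cardiac genes and none of 10 smooth muscle genes passed in any comparison with control by limma, with 12 or with 11 arrays. At an unadjusted p under 0.05 there were 5 cardiac genes in eosinophilic, 1 in mixed and 3 in neutrophilic mice with 12 arrays, and 3, 0 and 1 smooth muscle genes. Of all genes 28.2%, 7.95% and 14.7% had an unadjusted p under 0.05 in these comparisons. The cardiac mean ranged from 6.02 to 6.81 in eosinophilic, 6.92 to 8.15 in mixed, 6.42 to 7.31 in neutrophilic and 6.76 to 7.35 in control mice. The smooth muscle mean ranged from 6.10 to 7.90 in eosinophilic, 7.51 to 7.70 in mixed, 6.82 to 7.53 in neutrophilic and 7.47 to 7.82 in control mice. Nppa is named after its values were seen: mixed mouse 16, which had the lowest Chrm2 value of its group, had 10.0 log2 of this atrial gene, the highest of the 12 mice. Of 7 nerve and Schwann cell genes 0 passed by limma with 12 arrays (4, 0 and 3 at an unadjusted p under 0.05), and Scn7a, a sodium channel gene, was lower in all 3 allergen groups without mouse 7 (log2 -1.47 in eosinophilic, -1.51 in mixed and -2.34 in neutrophilic mice, adjusted p = 0.0373, 0.0102 and 0.000373). Stmn2, a neuronal gene, was also lower in neutrophilic mice without mouse 7 (log2 -1.79, adjusted p = 0.0462). The other 5 genes of the list, Uchl1, Snap25, Prph, Tubb3 and Sox10, had higher means in neutrophilic than in control mice and did not pass, and the list's median there was 0.41 log2, against 0.05 over all genes. The part of these cells in the Chrm2 difference was not tested.

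The genes most like Chrm2 were Rufy2 (r 0.962), Gucy1a2 (0.961) and Prepl (0.949) over 12 arrays. Over 11 arrays they were Gucy1a2 (0.960), Klhdc2 (0.960) and Rufy2 (0.959). Gucy1a2 encodes a subunit of soluble guanylate cyclase, the receptor of nitric oxide.

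**Figure D2:**
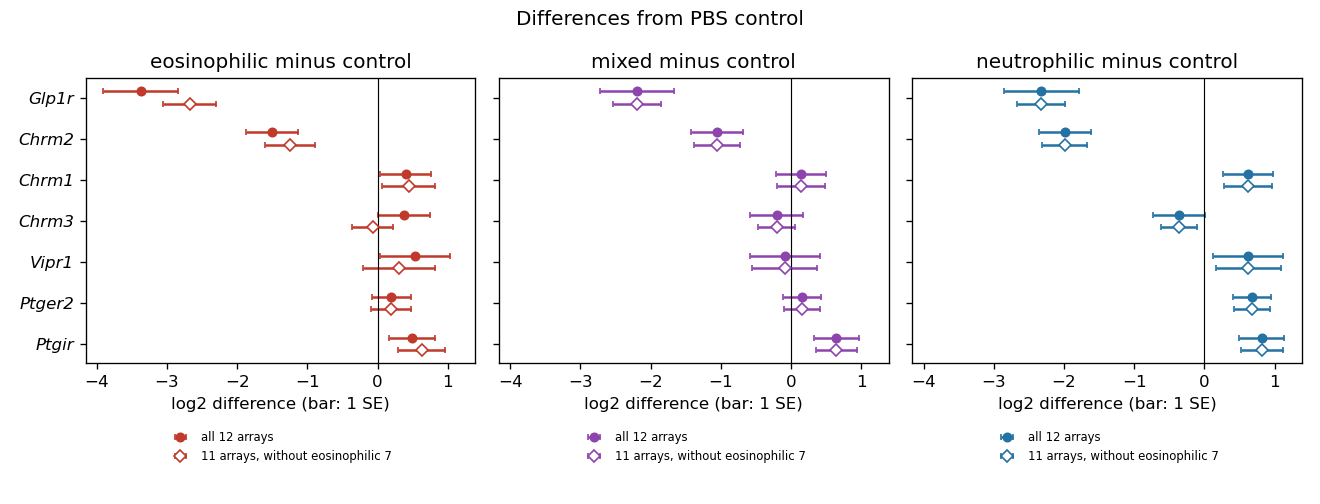
Difference from control of each receptor gene (horizontal axis, log2, bar 1 SE of the linear model) in eosinophilic, mixed and neutrophilic mice, with all 12 arrays (filled) and with the 11 arrays without eosinophilic mouse 7 (open). Glp1r and Chrm2 lie left of 0 in all 3 panels, Ptger2 and Ptgir right of it, and Chrm3 in eosinophilic mice changes side when mouse 7 is left out.

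The other muscarinic receptors passed no test. Chrm1 had 5.61, 5.24 and 6.23 log2 in eosinophilic mice, 5.20, 5.76 and 5.36 in mixed mice and 6.64, 5.52 and 5.59 in neutrophilic mice, against 5.41, 5.11 and 5.37 in control mice. The 3 neutrophilic mice lay above all control mice, but the 2 highest values of the 12 were those of neutrophilic mouse 23 and eosinophilic mouse 9, the arrays with low SDs and raised olfactory genes. The neutrophilic difference was 0.62 (SE 0.36, 95% interval -0.16 to 1.40, adjusted p = 0.484). The eosinophilic difference was 0.40 (-0.38 to 1.18, adjusted p = 0.418) and the mixed difference 0.14 (-0.63 to 0.92, adjusted p = 1).

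Chrm3, the receptor through which acetylcholine contracts airway muscle, had 5.84, 4.31 and 4.72 log2 in eosinophilic mice. Mixed mice had 4.43, 4.36 and 4.33, neutrophilic mice 4.17, 4.12 and 4.37, and control mice 4.82, 4.85 and 4.07. The highest value came from eosinophilic mouse 7, where the olfactory genes had a median of 5.12 and a 95th percentile of 6.42. All groups overlapped with control, and the direction in eosinophilic mice rested on that array: the difference was 0.37 (SE 0.37, adjusted p = 0.464) with 12 arrays and -0.07 (SE 0.29, adjusted p = 0.916) without it. In mixed mice Chrm3 measured -0.21 (95% interval -1.01 to 0.60) and in neutrophilic mice -0.36 (-1.17 to 0.44), with adjusted p = 1 and 0.699.

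Vipr1 had 2 probe sets, and the 1 with the higher mean was used. It had 5.74, 5.07 and 5.05 log2 in eosinophilic mice, 4.56, 4.83 and 4.59 in mixed mice, 6.83, 4.66 and 4.64 in neutrophilic mice and 4.45, 4.69 and 5.13 in control mice. Neutrophilic mouse 23 stood far above the other neutrophilic mice and carried the group's direction. The difference from control was 0.62 (SE 0.50, adjusted p = 0.626) with it and -0.10 without it. The other probe set measured 4.58, 4.37 and 4.49 in eosinophilic mice against 5.01, 4.72 and 4.81 in control mice, lower in all 3, where the first was higher on average by 0.53 (SE 0.50, adjusted p = 0.44). The probe sets thus disagreed in the direction of the eosinophilic difference. Mixed mice measured -0.09 (95% interval -1.17 to 0.99, adjusted p = 1).

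**Figure D3:**
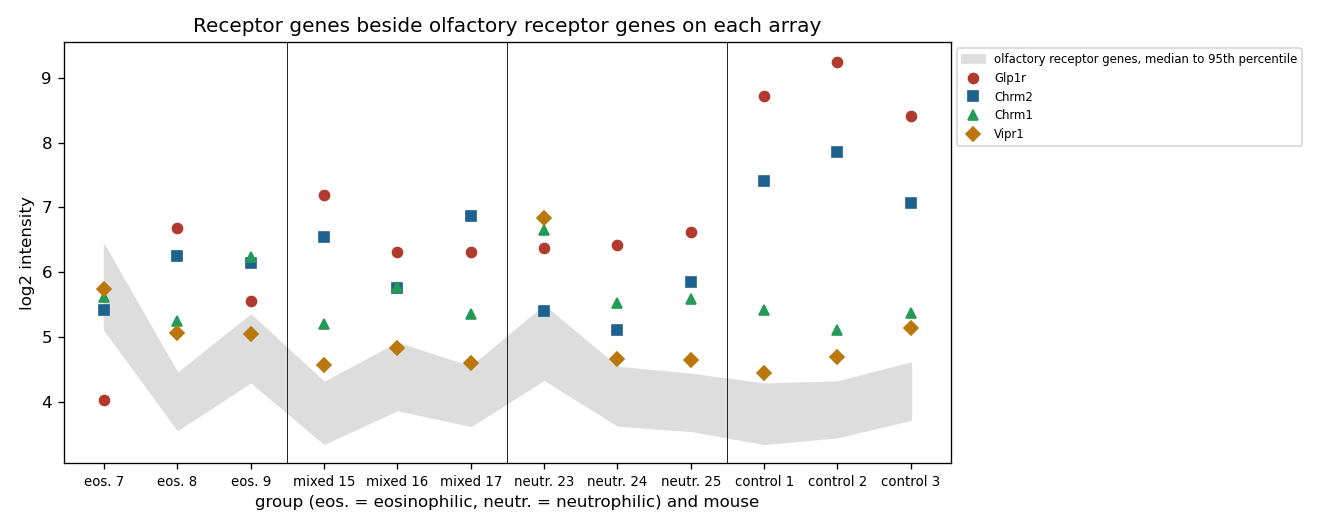
Log2 intensity (vertical axis) of Glp1r, Chrm2, Chrm1 and Vipr1 on each of the 12 arrays, with the range from the median to the 95th percentile of 1027 olfactory receptor genes shaded. The shaded range is raised on eosinophilic 7 and 9 and neutrophilic 23, where Glp1r (mouse 7) lies below it and the highest Chrm1 and Vipr1 values (mouse 23) occur.

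The chosen prostanoid receptors, Ptger2 and Ptgir, had higher means in all 3 allergen groups, and none of these differences passed the threshold. Other prostanoid receptors were measured among related receptors, and their directions varied. By its mean Ptger4 was higher than control in all 3 allergen groups, and Tbxa2r was lower. Ptger4 had 7.60, 6.86 and 7.40 log2 in mixed mice, against 6.25, 5.94 and 5.82 in control mice. Tbxa2r had 5.58, 6.01 and 6.11 in mixed mice, against 6.64, 6.46 and 5.98 in control mice. Neither passed the threshold. Ptgir had 5.27, 5.89 and 5.49 log2 in eosinophilic mice, 6.33, 5.19 and 5.60 in mixed mice and 5.53, 6.10 and 6.0 in neutrophilic mice, against 5.11, 5.06 and 5.01 in control mice. All 9 allergen-exposed mice lay above all 3 control mice, which differed little from each other (SD 0.05). The differences were 0.49 in eosinophilic, 0.65 in mixed and 0.82 in neutrophilic mice (SE 0.32), with adjusted p = 0.286, 0.707 and 0.241, and 0.357, 0.379 and 0.109 without mouse 7. Fitted without mice 7, 9 and 23, which leaves neutrophilic mice 24 and 25, the neutrophilic difference was 0.99.

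Ptger2 had 4.54, 4.42 and 4.63 log2 in eosinophilic mice, 4.69, 4.42 and 4.36 in mixed mice and 4.67, 5.25 and 5.11 in neutrophilic mice, against 4.62, 4.43 and 3.95 in control mice. The neutrophilic mice lay above all others except that mixed mouse 15 was above neutrophilic mouse 23. Their difference from control was 0.68 (SE 0.27, 95% interval 0.09 to 1.27, adjusted p = 0.25, and 0.129 without eosinophilic mouse 7). It was 0.85 log2 in the fit without mice 7, 9 and 23, which leaves neutrophilic mice 24 and 25. In eosinophilic mice Ptger2 measured 0.20 (-0.39 to 0.79, adjusted p = 0.598) and in mixed mice 0.16 (-0.43 to 0.75, adjusted p = 1).

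Leukocytes also carry prostanoid receptors, so their markers were set beside these values. The mean of 8 neutrophil genes ranged from 5.90 to 7.74 in eosinophilic, 8.0 to 9.0 in mixed and 7.59 to 9.30 in neutrophilic mice, against 5.72 to 6.68 in control mice. With 12 arrays 0, 1 and 4 of them were higher in eosinophilic, mixed and neutrophilic mice, against 0.0752%, 0.326% and 0.662% of all genes. Without mouse 7 these counts were 0, 6 and 6, against 0.451%, 1.41% and 2.24% of all genes. The mean of 8 macrophage genes ranged from 6.22 to 8.42, 7.96 to 8.43 and 7.56 to 8.23 in these groups, against 6.75 to 7.29 in control mice. With 12 arrays 1 of the 8 was higher in each group, Chil3, a chitinase-like gene of macrophages (log2 3.20, 4.11 and 3.65, adjusted p = 0.0479, 0.0157 and 0.0139), and 2, 1 and 2 were with 11 arrays, against 0.451%, 1.41% and 2.24% of all genes. The part of these cells in the prostanoid receptor values was not tested. The genes most like Ptgir were Cyp4f18 (r 0.959 over 12 arrays), Ccr1 (0.928), a chemokine receptor gene of leukocytes, and Plekhf1 (0.927). Over 11 arrays Cyp4f18 (0.958), Pdlim7 (0.95) and Plekhf1 (0.943) came first.

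Counted over the 6 tested receptors with 12 arrays, 0 passed in eosinophilic against control mice, where 0.497% of all genes did. In mixed mice 0 passed, against 0.471% of all genes, and in neutrophilic mice 1 did, against 2.11%. At an unadjusted p under 0.05 the counts were 1, 1 and 3 of 6, against 28.2%, 7.95% and 14.7% of all genes. Without mouse 7 they again came to 0, 0 and 1 past the threshold, when 1.33%, 2.99% and 9.47% of all genes passed. Receptors whose values lay wholly above control numbered 1 in eosinophilic, 1 in mixed and 3 in neutrophilic mice, against 11.1%, 9.16% and 12.6% of all genes. Chrm2 was the 1 that lay wholly below control in each group, against 15.9%, 13.9% and 20.4% of all genes. The 3 comparisons share the same control mice.

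No receptor passed between the allergen groups, with 12 or with 11 arrays. With 12 arrays 0.00502% of all genes passed for mixed against eosinophilic, 0.00% for neutrophilic against mixed and 0.115% for neutrophilic against eosinophilic mice, and with 11 arrays 0.0502%, 0.00% and 0.191%. Unadjusted p by limma with 12 arrays was under 0.05 for 0, 1 and 0 of the 6 receptors, the 1 being Chrm2. Among all genes 16.7%, 3.10% and 10.2% had such a p. Values did not overlap for Vipr1, lower in each mixed than in each eosinophilic mouse, and for Ptger2, higher in each neutrophilic than in each eosinophilic mouse. That is 1, 0 and 1 of the 6, against 13.0%, 14.0% and 8.21% of all genes. The other Vipr1 probe set went the opposite way, also without overlap. It had 4.85, 4.78 and 4.61 log2 in mixed mice against 4.58, 4.37 and 4.49 in eosinophilic mice.

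Of a list of 22 genes that supply or remove the receptors' ligands 20 were measured. With 12 arrays Dpp4 alone passed, lower in eosinophilic and neutrophilic mice, where 0.421% and 1.45% of all genes were lower. Among all genes 0.0752%, 0.326% and 0.662% were higher in eosinophilic, mixed and neutrophilic mice with 12 arrays, and 0.451%, 1.41% and 2.24% with 11. Without mouse 7, 2 were higher and 1 lower in mixed mice, and 2 were higher and 4 lower in neutrophilic mice. Among all genes 1.57% were lower in mixed and 7.23% in neutrophilic mice. Ptges, a synthase of prostaglandin E2, averaged 9.56 in mixed, 9.36 in neutrophilic and 7.18 in control mice. It rose in mixed (log2 2.38, SE 0.43, adjusted p = 0.00842) and neutrophilic mice (2.18, adjusted p = 0.00681) without mouse 7, against adjusted p = 0.259 and 0.169 with 12 arrays. Ptgs2, the inducible cyclooxygenase gene, also rose in both without mouse 7 (log2 1.79, adjusted p = 0.00861, and 1.19, adjusted p = 0.0343). Hpgd, which inactivates prostaglandins, fell without mouse 7 in mixed (log2 -1.78, adjusted p = 0.0144) and neutrophilic mice (-3.26, adjusted p = 0.000182). The synthase genes Ptgis, Ptges2 and Ptges3 on the same list did not pass in either group. The peptidase gene Mme also fell in neutrophilic mice without mouse 7 (log2 -2.14, adjusted p = 0.00197). The median of the list was 0.08, 0.08 and 0.07 log2 in eosinophilic, mixed and neutrophilic mice with 12 arrays, against 0.01, 0.00 and 0.05 over all genes.

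Downstream of Gs, 29 of 32 cyclic AMP pathway genes were measured, and none passed the threshold as higher than control. With 12 arrays 4 were lower in eosinophilic, 0 in mixed and 3 in neutrophilic mice, against 0.421%, 0.145% and 1.45% of all genes. Without mouse 7 these were 4, 3 and 9, against 0.883%, 1.57% and 7.23%. The list medians were -0.76, -0.39 and -0.72 log2 with 12 arrays. Pde4b, a phosphodiesterase gene, did not pass and is named after its values were seen. It had 8.17, 7.49 and 7.73 log2 in mixed mice, above the 7.09, 6.77 and 6.62 of control mice. Of all genes 9.16% lay wholly above control in mixed mice. Eosinophilic mice (6.25, 7.12 and 7.17) and neutrophilic mice (7.02, 7.85 and 7.65) overlapped with control mice in Pde4b. Akap5, which anchors protein kinase A near beta-adrenoceptors and is also on the alveolar type 1 list, had 6.42, 9.01 and 7.89 log2 in eosinophilic mice, 9.04, 8.86 and 9.03 in mixed mice and 7.91, 7.62 and 8.09 in neutrophilic mice, against 10.8, 10.8 and 10.2 in control mice. It fell in eosinophilic (log2 -2.81, SE 0.50, adjusted p = 0.0462, and -2.14, adjusted p = 0.0111 without mouse 7) and neutrophilic mice (-2.72, SE 0.50, adjusted p = 0.0178), and in mixed mice without mouse 7 (-1.61, SE 0.30, adjusted p = 0.011).

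Adcy8, an adenylyl cyclase gene, fell in eosinophilic (log2 -1.93, SE 0.36, adjusted p = 0.0462) and neutrophilic mice (-2.07, adjusted p = 0.0146), and in mixed mice without mouse 7 (-1.35, adjusted p = 0.0339). Pde8b, a phosphodiesterase that breaks cyclic AMP down, fell in eosinophilic (-1.79, SE 0.33, adjusted p = 0.0462) and neutrophilic mice (-1.78, adjusted p = 0.018), and in mixed mice without mouse 7 (-1.56, adjusted p = 0.00448). Genes whose products make and degrade cyclic AMP were thus both among those that fell. Pde7a, another phosphodiesterase gene, was lower in eosinophilic mice (-1.76, adjusted p = 0.0492), and Pde3a in neutrophilic mice without mouse 7 (-1.18, adjusted p = 0.0179).

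Of the Gq and Gi list 17 of 18 genes were measured. Plcb4, a phospholipase C of the Gq pathway, fell in neutrophilic mice (log2 -1.44, SE 0.31, adjusted p = 0.0339) and measured -1.54 in eosinophilic mice (adjusted p = 0.051, and 0.0482 without mouse 7). Rgs4, a regulator that shortens Gq and Gi signals, was the 1 that passed as higher. Its difference in mixed mice was 1.58 log2 (adjusted p = 0.0452, and 0.00601 without mouse 7, SE 0.30 with 12 arrays). It had 7.72, 6.97 and 7.19 log2 in mixed mice, against 5.81, 5.61 and 5.73 in control mice, with no overlap. Without mouse 7, 7 were lower in neutrophilic mice, against 7.23% of all genes, among them Rgs2 (-2.29, adjusted p = 0.0106), Gnao1 (-1.36, adjusted p = 0.00761) and the Gq subunit gene Gnaq (-1.10, adjusted p = 0.0319). The list medians were -1.11, -0.47 and -0.82 log2 in eosinophilic, mixed and neutrophilic mice with 12 arrays, and the eosinophilic one was -0.43 without mouse 7.

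Receptor kinases and arrestins, which switch such receptors off, were measured for 6 of 7 genes. None passed by limma with 12 arrays. Unadjusted p was under 0.05 for 2, 1 and 1 in eosinophilic, mixed and neutrophilic mice, against 28.2%, 7.95% and 14.7% of all genes. Arrb1 (log2 -1.22, adjusted p = 0.0125) and Grk5 (-1.36, adjusted p = 0.0143) were lower in neutrophilic mice without mouse 7, 2 of 6 against 7.23% of all genes. Of 34 related receptors 24 were measured and none passed by limma with 12 arrays in any comparison with control (5, 2 and 4 at an unadjusted p under 0.05, against 28.2%, 7.95% and 14.7% of all genes). Without mouse 7, 1 was lower in mixed mice, where 1.57% of all genes were, and 2 were lower and 1 higher in neutrophilic mice, against 7.23% and 2.24%. Calcrl, the receptor subunit for CGRP and adrenomedullin and an endothelial gene, was lower in mixed (-1.85, adjusted p = 0.00613) and neutrophilic mice (-2.98, adjusted p = 0.00015). Vipr2, the other receptor of vasoactive intestinal peptide, was lower in neutrophilic mice (-1.20, adjusted p = 0.0411), where Crhr2, a receptor of the corticotropin-releasing hormone family, was higher (0.90, adjusted p = 0.0351). Vipr2 had 6.93, 6.46 and 6.10 log2 in eosinophilic, 6.40, 5.69 and 6.28 in mixed and 6.49, 5.73 and 6.34 in neutrophilic mice. Control mice had 7.91, 7.57 and 6.68. Vipr2 was about as low in mixed as in neutrophilic mice, but it did not pass in mixed mice.

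**Figure D4:**
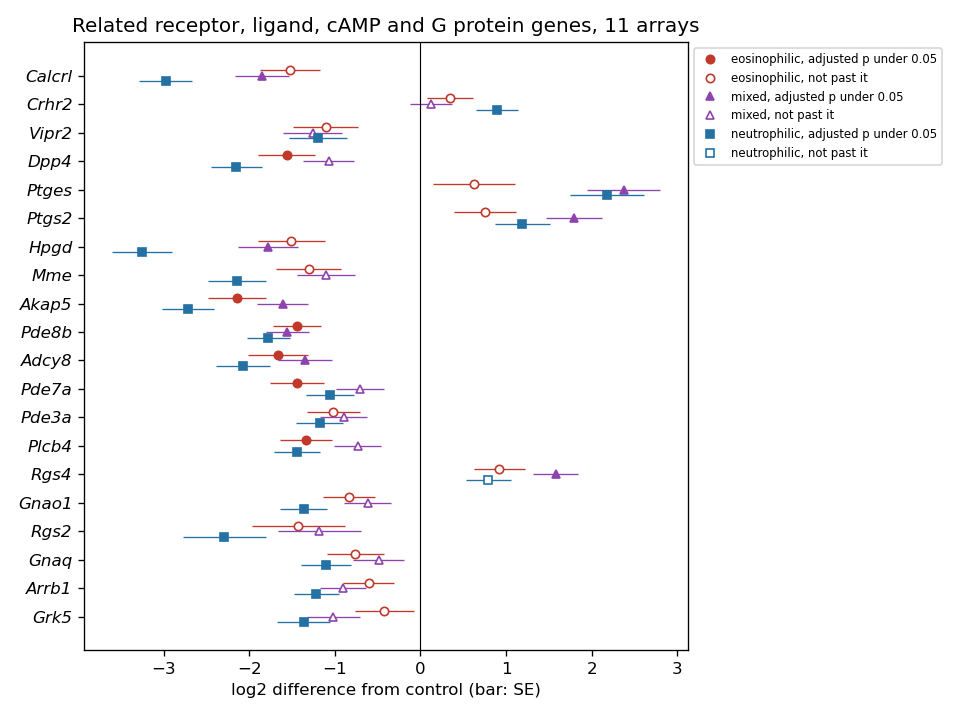
Difference from control (horizontal axis, log2, bar 1 SE) of the related receptor, ligand, cyclic AMP and G protein genes named by the rule, in eosinophilic, mixed and neutrophilic mice with 11 arrays. Filled symbols passed an adjusted p of 0.05. Ptges, Ptgs2, Rgs4 and Crhr2 lie right of 0 and the other genes left of it.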

How the data were processed

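Whole lung RNA (300 ng, biotin label, per the labels' protocols) was hybridised to 12 arrays, 3 in each of 4 groups. The deposited values lie on a log2 scale, as read from their range. The submitters' processing notes name RMA and Affymetrix Expression Console, with versions and genome build not given in the sources used here. SDs differed between the 12 columns, so these did not share 1 distribution. The number of arrays limits the precision. Mice are numbered in the titles, and nothing more is said of their origin.

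Of 34760 probe sets 21640 had a single gene symbol in the platform annotation. For each of the 19937 genes the brightest probe set, by its mean over all arrays, was kept (954 genes had several). Entrez IDs of 21553 probe sets matched RefSeq, and 0 symbols changed. R 4.3.3 with limma 3.58.1 fitted 1 mean per group to all 12 arrays (lmFit, eBayes without trend). P values were two-sided and adjusted by Benjamini-Hochberg over 19937 genes within each of 6 comparisons, with 0.05 as the threshold. The fit was tested on simulated data. Promoter windows from RefSeq were found for 7 of the 8 genes.

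The receptors, the gene lists and the setting without eosinophilic mouse 7 were chosen with earlier results of these data known. Named were all receptors and the members of the pathway lists past the threshold with 12 or 11 arrays (up to 4 by p for each list and comparison). Of the cell type genes past it only some were named. Also named were the genes most correlated with a receptor (5 for Glp1r, 3 for each other receptor with a mean of at least 5 log2) and some list genes that did not pass. Alternatives were a filter on dim genes, centring, quantile normalization, trend and robust variances, fits of the compared groups alone, other uses of the probe sets and leaving out arrays.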

Additional observations from a re-analysis of the deposited data

How the results depend on the processing

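No paired analysis was possible because the mouse numbers in the labels are not shared between groups. Over the 6 tested receptors and 6 comparisons, 489 of 528 alternative values kept their direction and their side of the threshold, 28 changed sign, 6 passed it newly and 5 no longer did. Direction could not change under the filter on dim genes, trend and robust variances, a test of all probe sets or the compared groups alone. These keep the log2 difference. Leaving out mouse 7 was counted again among single arrays in eosinophilic comparisons, so the tally does not measure stability. Chrm3 and Ptger2 gave no value under the filter on dim genes. Leaving out mice 7, 9 and 23 leaves eosinophilic mouse 8 as the 1 mouse of its group, so those eosinophilic values rest on a lone mouse assumed to vary like the other groups, among them the Glp1r limit of -2.12. The causes of the shifts below were not tested.

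The count of receptors past the threshold in eosinophilic against control mice was 1 with trend and robust variances (Chrm2, adjusted p = 0.0438), and ranged from 0 to 1 when single arrays were left out (Chrm2, adjusted p = 0.00921 without eosinophilic mouse 8). In mixed mice it was 1 without mice 7, 9 and 23 (Chrm2, adjusted p = 0.0401) and 1 with the compared groups alone (adjusted p = 0.0406). In neutrophilic mice it was 0 after quantile normalization (Chrm2 -1.70, adjusted p = 0.0552), 3 without mice 7, 9 and 23, and 0 to 1 when single arrays were left out.

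For Glp1r the difference from control ranged from -4.00 to -2.12 in eosinophilic, -2.49 to -1.97 in mixed and -2.52 to -1.90 in neutrophilic mice. Between allergen groups its sign turned without mice 7, 9 and 23 (-0.074 for mixed minus eosinophilic, -0.16 for neutrophilic minus eosinophilic), after quantile normalization (0.074 for neutrophilic minus mixed) and with single arrays left out (-0.28 to 0.16 for neutrophilic minus mixed).

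Other signs turned without mice 7, 9 and 23. Against control, Chrm1 was -0.054 and Chrm3 -0.27 in eosinophilic and Vipr1 -0.10 in neutrophilic mice. For mixed minus eosinophilic, Chrm1 was 0.20, Chrm3 0.065, Ptger2 0.073 and Ptgir -0.18. Vipr1 was -0.011 for neutrophilic minus mixed and -0.41 for neutrophilic minus eosinophilic. Without mouse 7 alone, Chrm3 was -0.069 in eosinophilic against control mice. After quantile normalization Ptger2 was -0.27 for eosinophilic minus control and 0.35 for mixed minus eosinophilic.

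Leaving out single arrays gave these ranges across 0. Against control they were -0.069 to 0.70 for Chrm3 in eosinophilic mice, -0.019 to 0.26 for Chrm1, -0.25 to 0.096 for Vipr1 and -0.032 to 0.30 for Ptger2 in mixed mice, and -0.10 to 0.99 for Vipr1 in neutrophilic mice. For mixed minus eosinophilic they were -0.48 to 0.013 for Chrm1, -0.14 to 0.026 for Ptger2 and -0.16 to 0.41 for Ptgir. For neutrophilic minus mixed they were -0.011 to 1.09 for Vipr1 and -0.088 to 0.48 for Ptgir. For neutrophilic minus eosinophilic they were -0.14 to 0.49 for Chrm1 and -0.63 to 0.46 for Vipr1.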

Other observations

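The remaining cell type lists gave few calls against control. Of 7 club and ciliated genes 2 were lower in eosinophilic, 0 in mixed and 1 in neutrophilic mice with 12 arrays, against 0.421%, 0.145% and 1.45% of all genes. Scgb3a2, a secretory gene of club cells, was lower in eosinophilic mice (log2 -2.06, adjusted p = 0.0347 by limma), and Sntn, a gene of cilia, in eosinophilic (-1.66, adjusted p = 0.0462) and neutrophilic mice (-1.74, adjusted p = 0.0114). Of 9 fibroblast and pericyte genes Itga8 alone was lower with 12 arrays, in eosinophilic mice (-3.30, adjusted p = 0.0462). Without mouse 7 it measured -2.42 (adjusted p = 0.0171) there and -1.83 (adjusted p = 0.00866) in neutrophilic mice. None of 8 alveolar type 2, 6 T lymphocyte or 6 eosinophil genes passed by limma with 12 arrays. Without mouse 7 the type 2 gene Etv5 was lower in mixed (log2 -2.02, adjusted p = 0.00717) and neutrophilic mice (-1.84, adjusted p = 0.00614). That was 1 of 8 in each, against 1.57% and 7.23% of all genes. At an unadjusted p under 0.05 with 12 arrays there were 3, 1 and 1 type 2 genes in eosinophilic, mixed and neutrophilic mice. There were 0 T lymphocyte genes in each, and 2, 0 and 0 eosinophil genes. Of all genes 28.2%, 7.95% and 14.7% had such a p. The mean of the 6 eosinophil genes was 5.04 to 5.5 log2 in eosinophilic, 5.05 to 5.24 in mixed and 4.96 to 5.49 in neutrophilic mice, against 4.83 to 4.85 in control mice. Jchain, of plasma cells, rose in neutrophilic mice with 12 arrays (log2 3.90, adjusted p = 0.0325). It was the 1 of 6 genes of its list that passed there, against 0.662% of all genes called higher.

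The genes most like Chrm1 were Espn (r 0.936), Lypd5 (0.927) and Mir320 (0.925) over 12 arrays, and Sox1ot (0.954), Tcf23 (0.953) and Mir320 (0.939) over 11. Those most like Vipr1 were Mir188 (0.946), 1700025H01Rik (0.931) and Tnnt3 (0.917) over 12 arrays, and Mir188 (0.941), 1700025H01Rik (0.922) and H2ap (0.922) over 11.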
